A study of Mus musculus with 6 samples.

Results

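The clustered histone genes were defined as the protein-coding entries of the count table whose symbols start with Hist1h, Hist2h, Hist3h or Hist4h, which gave 64 genes out of 40481. They comprise 6 genes for the linker histone H1, 18 for H2A, 15 for H2B, 12 for H3 and 13 for H4. Of these, 52 lie in the Hist1 cluster on chromosome 13, 9 in Hist2 on chromosome 3, 2 in Hist3 on chromosome 11 and 1, Hist4h4, on chromosome 6. Their RNA was measured in unstimulated bone marrow-derived macrophages (BMDMs) by sequencing of poly(A)-selected RNA, with 3 libraries from wild-type mice and 3 from Scd2-m/-m mice. Scd2 encodes a stearoyl-CoA desaturase, an enzyme that introduces a double bond into saturated fatty acids. Scd2-m/-m mice carry floxed Scd2 alleles and a lysozyme M-Cre transgene, which acts in cells of the myeloid lineage. The study used male and female mice aged 2 to 5 months, and the age and sex behind each library were not given. All 6 cultures were differentiated in medium conditioned by CMG cells, a source of M-CSF. Nothing in the labels says that the libraries of a genotype came from separate animals, so the p-values measure the spread between these libraries, which may be technical.

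The core histones H2A, H2B, H3 and H4 form the protein spool of the nucleosome, and H1 binds the linker DNA between spools. Most clustered histone genes are replication-dependent: their mRNA is made in S phase, has no intron and ends just after a conserved stem-loop in place of a poly(A) tail, and the stem-loop is bound by SLBP. Some of these genes can also give longer, polyadenylated transcripts, which are known from differentiated cells. Replacement histones such as H3f3a and H3f3b are encoded outside the clusters, have ordinary polyadenylated mRNA and are made throughout the cell cycle.

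The histone stem-loop, a 16-base motif whose ends pair around a short T-rich loop, was searched for on the transcribed strand of the GENCODE transcripts (GRCm38). It was present in the longest coding transcript of 43 of the 64 members. Of those without it, 16 are annotated with at most 48 bases after the stop codon. Their annotation may stop before the place of a stem-loop, so its absence there is uncertain. Counting any transcript, the stem-loop was in 44 members and in 0.255% of all 21951 protein-coding genes. The most frequent form occurred in 23 members. The 6 sites shown here are those of members with high levels or with a change between genotypes, and they show that the genes that rose and the gene that fell most clearly carry the same 16-base core. Capitals mark the stem-loop, and the lower-case bases flank it. The sites lie after the stop codon at chr13:23739512-23739527 on the plus strand for Hist1h1c, chr13:21810898-21810913 (plus) for Hist1h2ao, chr13:21833029-21833044 (minus) for Hist1h2ap, chr13:23571843-23571858 (plus) for Hist1h2bg, chr11:58955172-58955187 (plus) for Hist3h2a and chr13:22040966-22040981 (minus) for Hist1h4i.
Hist1h1c: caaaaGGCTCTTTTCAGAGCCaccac
Hist1h2ao: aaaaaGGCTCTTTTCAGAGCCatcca
Hist1h2ap: aaaaaGGCTCTTTTCAGAGCCatc
Hist1h2bg: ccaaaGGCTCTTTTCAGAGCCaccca
Hist3h2a: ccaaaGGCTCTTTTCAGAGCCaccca
Hist1h4i: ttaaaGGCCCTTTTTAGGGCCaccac

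These genes differed in the annotated sequence beyond the stem-loop. It extended 840 bases further in Hist1h1c, 1643 in Hist3h2a, 330 in Hist1h4i and 155 in Hist1h2bg. It stopped 31 bases after the stem-loop in Hist1h2ao and 3 bases after it in Hist1h2ap. Hist1h2bc and Hist2h2be had no stem-loop of this form in their transcripts, with 742 and 2192 bases after the stop codon, respectively.

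Scd2 itself was measured at 66.9, 77.8 and 62.7 CPM (counts scaled to library size) in wild-type replicates 1 to 3 and at 59.5, 38.0 and 39.8 in Scd2-m/-m replicates 1 to 3. All 3 Scd2-m/-m libraries were below all wild-type libraries, at 66.2% of the wild-type mean, but replicate 1 was close to them and the gene missed the threshold (log2 fold change -0.59, adjusted p = 0.1002). The gene-level counts do not separate the deleted exons from the rest of the transcript. The libraries held between 46285176 and 57629638 counts. Of 14778 genes tested, 17.5% passed an adjusted p (FDR) of 0.05, 9.65% upwards and 7.84% downwards in the Scd2-m/-m libraries. Macrophage markers were abundant in all libraries, with summed levels of 38101 to 39266 CPM in wild-type and 22166 to 22919 CPM in Scd2-m/-m BMDMs. The difference was made mostly by Lyz2, the lysozyme M gene (22751 against 9029 CPM on average). Scd2-m/-m mice carry lysozyme M-Cre, and the wild-type mice are not described as carrying it. An effect of the Cre on Lyz2, or on any other gene, therefore cannot be told apart from one of Scd2 loss. Markers of monocytes and progenitors summed to 80.9 to 98.9 CPM in wild-type and 206 to 268 CPM in Scd2-m/-m BMDMs, and markers of neutrophils to 22.7 to 26.2 and 35.0 to 45.2 CPM.

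Clustered histone genes took up little of the libraries, with 0.0116% to 0.0125% of all counts in wild-type and 0.01003% to 0.0111% in Scd2-m/-m libraries. Their summed level went from 121 ± 4.43 CPM in the wild-type libraries to 106 ± 5.58 CPM in those of Scd2-m/-m (SD, n = 3), 87.5% of wild-type, with separate libraries. Without the 4 most abundant members it was 114% of wild-type, with overlapping libraries. Hist1h1c alone went from 53.3 to 38.5 CPM, so the fall of the sum was mostly that of this gene. Hist1h1c, a linker histone gene, and Hist1h2bc, an H2B gene, supplied 73.2% of the 35068 counts of the 64 members, and the 6 most abundant members 90.7%. Hist1h2ba, Hist2h2aa1, Hist2h2aa2, Hist2h3b and Hist2h3c1 had no count in any library, and 41 members had fewer than 60 counts over all 6 libraries. The count filter kept 27 members for testing. The other 37 had at most 46 counts each in total and were not tested.

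**Figure D1:**
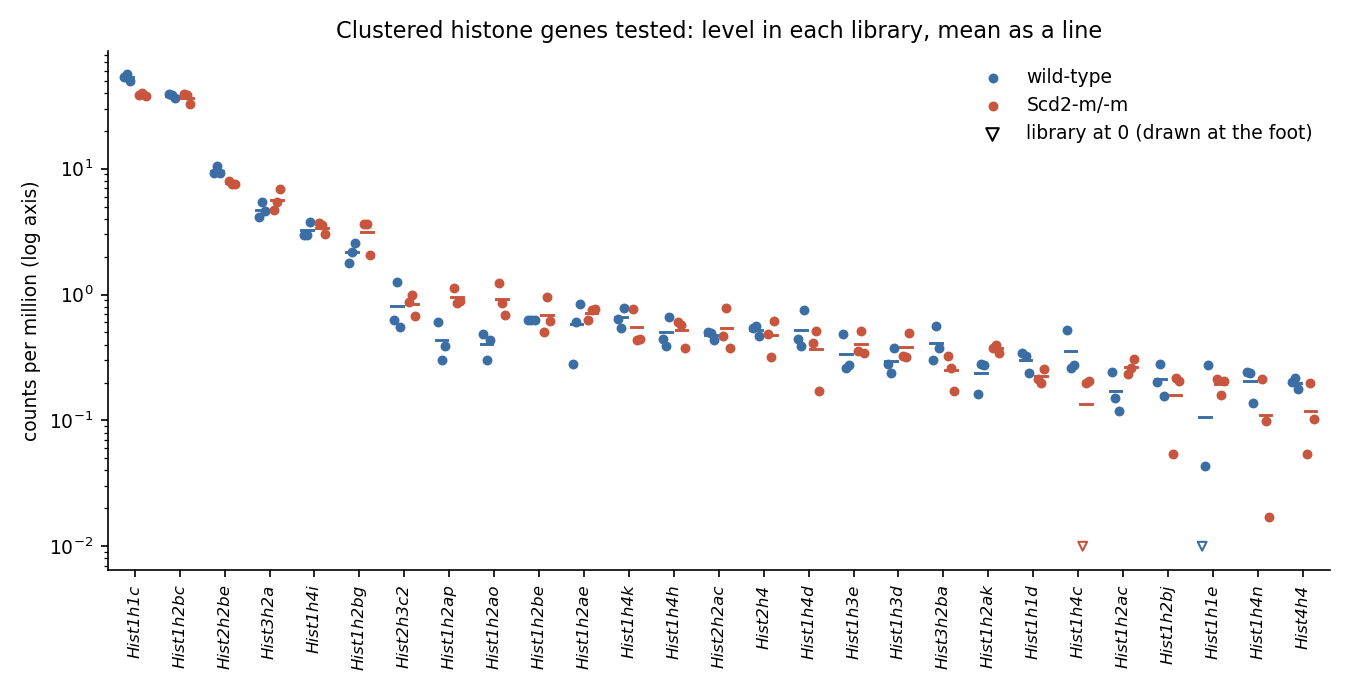
Level of the 27 tested clustered histone genes, ordered by total counts, in CPM on a log axis; each point is a library (blue, wild-type; red, Scd2-m/-m), lines are means of 3, and open triangles are libraries at 0. Hist1h1c and Hist1h2bc stand above all others, and 21 of the 27 have a mean below 1 CPM.

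The members with the highest levels per length shared a long annotated 3′ end. Hist1h2bc had 32.3 and Hist1h1c 29.4 CPM per kb of exon as means of 6 libraries. Next came the H4 gene Hist1h4i (4.58), the H2B genes Hist1h2bg (4.28) and Hist2h2be (3.31) and the H2A gene Hist3h2a (2.42). All 6 are annotated with more than 100 bases beyond the stem-loop or, without a stem-loop, beyond the stop codon. The 22 members with more than 100 bases after the stem-loop held 54.9% of all member counts, and the 5 with no stem-loop but more than 100 bases after the stop codon held 40.7%. The 21 members whose transcript ends within 100 bases of the stem-loop held 3.11%, and their highest level was 1.45 CPM per kb, in Hist1h2ap. The remaining 16, annotated with little or nothing after the stop codon, held 1.23%, with a highest level of 1.94 CPM per kb in Hist1h4k. The groups overlapped widely below these few genes, with medians of 0.285, 0.134, 0.188 and 0.0588 CPM per kb in the order given. The limit of 100 bases was set after these levels were seen, and the comparison is a description with no test.

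**Figure D2:**
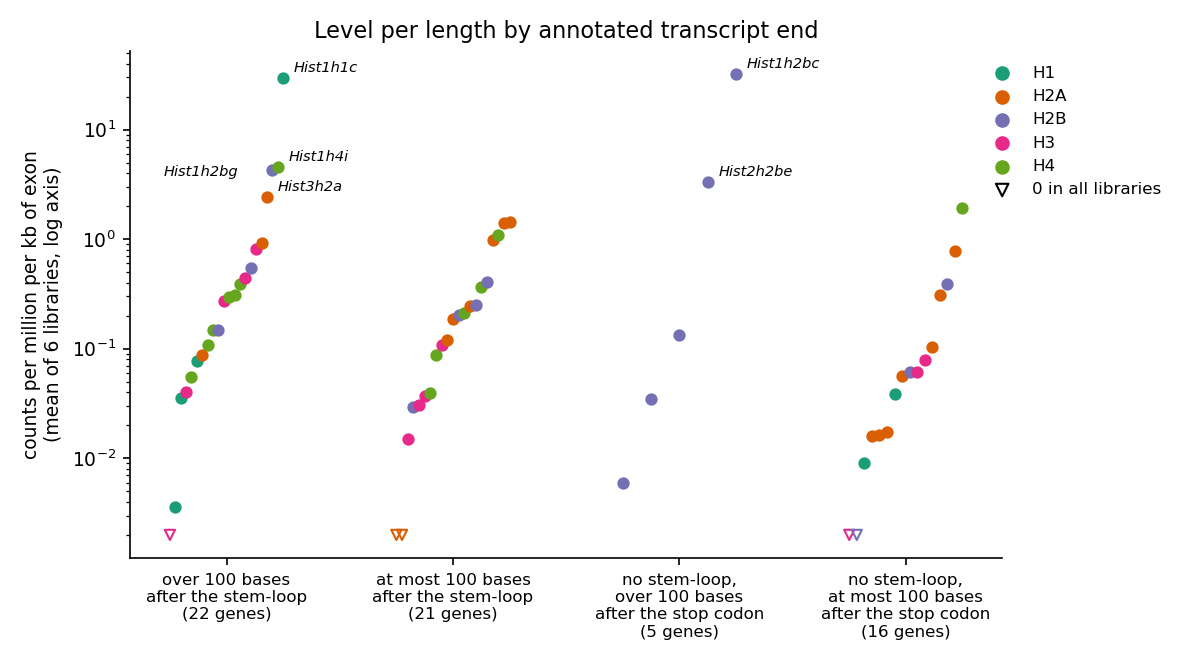
Mean level of the 64 clustered histone genes over 6 libraries, in CPM per kb of exon on a log axis, grouped by the annotated transcript end and coloured by family; open triangles are the 5 genes at 0. The 6 labelled genes, all above 2 CPM per kb, sit in the groups with more than 100 annotated bases beyond the stem-loop or stop codon.

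To ask whether the Scd2-m/-m genotype went with a change in clustered histone RNA, each gene was compared between genotypes in a fit over all genes. Of the 27 members tested, 4 passed the threshold, beside 17.5% of all genes tested. Hist1h1c and Hist2h2be were lower and Hist1h2ao and Hist1h2ap higher in Scd2-m/-m BMDMs. The median log2 fold change of the 27 was 0.07, and that of all genes tested was 0.00387. Among the 21 tested members with a mean below 1 CPM, 2 were called, beside 6.16% of all tested genes at such levels. The libraries of the genotypes did not overlap for 6 of the 27 members (22.2%), beside 34.9% of all genes tested. In bulk RNA, fewer cells of a type and less RNA per cell cannot be told apart.

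**Figure D3:**
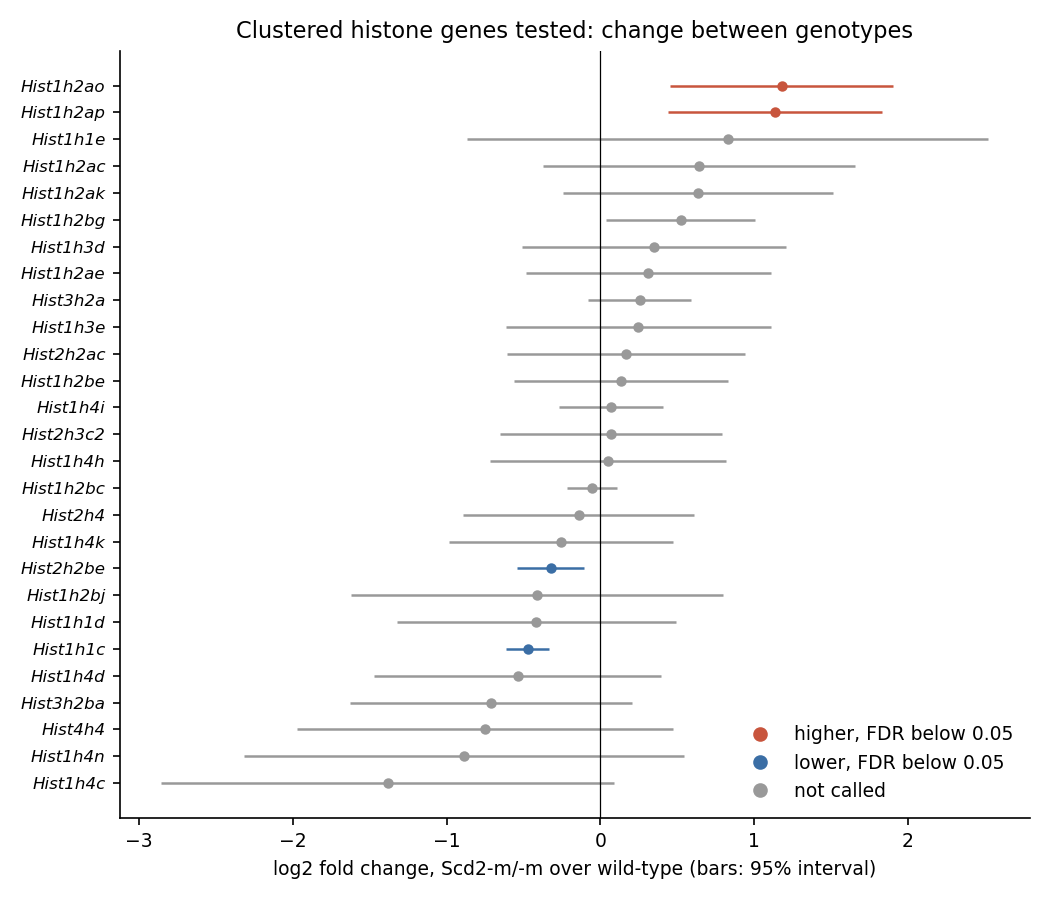
Log2 fold change between Scd2-m/-m and wild-type BMDMs for the 27 tested clustered histone genes, with 95% intervals (edgeR, 3 libraries per genotype). Hist1h2ao and Hist1h2ap (red) lie above 0 and Hist2h2be and Hist1h1c (blue) below it; the intervals of most others reach well to both sides of 0.

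Hist1h1c (ENSMUSG00000036181), which encodes the linker histone H1.2, carried the best-measured change. It was at 53.9, 56.2 and 49.97 CPM in wild-type and at 38.3, 39.7 and 37.5 CPM in Scd2-m/-m libraries, from 1994 to 2673 counts per library. All Scd2-m/-m libraries were below all wild-type libraries. The means were 53.3 ± 3.14 and 38.5 ± 1.10 CPM (SD, n = 3), and the log2 fold change was -0.47 (SE 0.065) with an adjusted p of 0.000217. An exact two-sided permutation test of 3 against 3 libraries cannot give less than p = 0.1, which is what it gave here. Hist1h1c is a single exon at chr13:23738808-23740367, and 91.5% of its 50-base windows occur in no other gene. It made up 99.0% of the counts of the H1 family, so the H1 sum fell with it, to 72.4% of the wild-type mean. Hist1h1e, the tested H1 gene with a positive estimate, had 0, 2 and 14 counts in wild-type and 12, 8 and 12 in Scd2-m/-m libraries, and its log2 fold change of 0.83 had a 95% interval of -0.87 to 2.52. The wild-type libraries spanned those of Scd2-m/-m, and without wild-type replicate 3, the one with 14 counts, the gene was called (3.07).

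Hist2h2be (ENSMUSG00000068854), an H2B gene at chr3:96221119-96223738 whose sequence windows all occur in no other gene, was at 9.25, 10.5 and 9.17 CPM in wild-type and at 7.99, 7.50 and 7.57 CPM in Scd2-m/-m libraries. The groups did not overlap. Its level was 79.8% of wild-type (log2 fold change -0.32, SE 0.10, adjusted p = 0.0385). This call was lost when wild-type replicate 2 (adjusted p = 0.188), Scd2-m/-m replicate 2 (0.143) or Scd2-m/-m replicate 3 (0.0820) was left out, with the value staying between -0.36 and -0.26 over all single omissions.

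Hist1h2ao and Hist1h2ap, which encode the same H2A protein from identical 390-base coding sequences, were the members that rose. Hist1h2ao had 24, 14 and 22 counts in wild-type and 69, 43 and 40 in Scd2-m/-m libraries. Hist1h2ap had 30, 14 and 20 and then 63, 43 and 52 counts. In each gene every Scd2-m/-m library was above every wild-type library. The levels rose from 0.407 ± 0.0928 to 0.927 ± 0.281 CPM for Hist1h2ao (SD, n = 3; log2 fold change 1.18, SE 0.34, adjusted p = 0.0274) and from 0.434 ± 0.154 to 0.960 ± 0.148 CPM for Hist1h2ap (1.14, SE 0.32, adjusted p = 0.0268). These are not independent measurements: 93.5% of the 50-base windows of Hist1h2ao also occur in Hist1h2ap, and the sources used here do not say how reads matching several genes were assigned. Summed into 1 gene, a comparison added after the data were seen, the pair had a log2 fold change of 1.16 and an adjusted p of 0.00715. Reads counted for both genes would be repeated in this sum, so its smaller adjusted p is not added support. The calls rest on few counts. Hist1h2ao lost its call without wild-type replicate 2 (adjusted p = 0.108), Scd2-m/-m replicate 1 (0.120) or Scd2-m/-m replicate 2 (0.0703), and Hist1h2ap without any library other than wild-type replicate 1 (0.0519 to 0.109), with positive values throughout.

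The promoters of this pair were alike as well. RefSeq promoter windows of 300 bases (GRCm38.p6), which reach 50 bases past the start annotated in RefSeq, share an identical run of 200 bases. Each has CCAAT at 3 places, counting either strand. The run reaches the last base of the Hist1h2ao window and the first of the Hist1h2ap window, so the windows are offset. GENCODE starts Hist1h2ao at chr13:21810465, past the end of its window, and Hist1h2ap at chr13:21833507, inside its window. The Hist1h2ao window, at chr13:21810117-21810416 on the plus strand, is shown because it is the promoter of a gene that rose, and capitals mark CCAAT or its reverse complement. Its first bases lie within Hist1h2bq, which is transcribed the other way.
Hist1h2ao: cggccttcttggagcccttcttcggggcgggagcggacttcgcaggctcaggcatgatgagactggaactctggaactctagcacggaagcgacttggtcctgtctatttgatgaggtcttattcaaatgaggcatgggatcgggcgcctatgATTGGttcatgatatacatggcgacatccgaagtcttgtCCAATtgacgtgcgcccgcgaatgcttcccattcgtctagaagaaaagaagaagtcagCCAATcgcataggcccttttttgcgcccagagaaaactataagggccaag

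Across the family, CCAAT on either strand was found in 51 of the 60 promoter windows matched to members (85%), and in 37.4% of all 32851 promoter windows. It was in every window of the H1, H2A, H2B and H3 genes and in 3 of 12 of the H4 genes. TATAAA was in 58.3% of member windows and 13.6% of all windows. The octamer ATTTGCAT was in 20% and 1.74%, and its 12 matches among members were 7 in H2A and 5 in H2B genes. The promoters that carry CCAAT thus belonged to Hist1h2ao and Hist1h2ap, which rose, to Hist1h1c, which fell, and to genes that did not pass the test. Hist2h2be, which also fell, and Hist1h2bc had no matched window. A match is a description of the sequence and not evidence of binding.

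Other H2A and H2B genes were measured with intervals that included 0 or nearly reached it. Hist1h2bc, the most abundant gene per length, was at 39.2, 38.2 and 36.5 CPM in wild-type and 39.1, 38.2 and 32.6 CPM in Scd2-m/-m libraries. The groups overlapped, and the log2 fold change of -0.05 had a 95% interval of -0.22 to 0.11. Hist1h2bg was at 1.77, 2.17 and 2.56 CPM in wild-type and 3.64, 3.66 and 2.07 CPM in Scd2-m/-m libraries. Scd2-m/-m replicate 3 lay among the wild-type libraries while the other two were above them all (log2 fold change 0.52, 95% interval 0.04 to 1.01, adjusted p = 0.135). Without that library the adjusted p was 0.0200. Hist1h2bg shares 45.0% of its 50-base windows with the far more abundant Hist1h2bc, so its reads cannot be assigned with certainty. Hist3h2a, whose exon overlaps Trim17, was at 4.15, 5.44 and 4.62 CPM in wild-type and 4.68, 5.41 and 6.85 CPM in Scd2-m/-m libraries, with overlapping groups (0.26, adjusted p = 0.297). Hist2h2ac had a log2 fold change of 0.17 (-0.61 to 0.94), and Hist3h2ba, the H2B gene with the lowest estimate, one of -0.71 (-1.63 to 0.20).

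The H3 and H4 genes had 0 calls in edgeR, DESeq2 and limma-voom, with 0, 0 and 1 gene, respectively, at an unadjusted p of 0.05. Hist1h4i, the most abundant H4 gene, was at 2.96, 2.99 and 3.78 CPM in wild-type and 3.67, 3.54 and 3.01 CPM in Scd2-m/-m libraries, with overlapping groups and a log2 fold change of 0.07 (-0.27 to 0.41). Hist1h4c had 26, 12 and 14 counts in wild-type and 0, 10 and 12 in Scd2-m/-m libraries. Its log2 fold change of -1.38 had a 95% interval of -2.85 to 0.09 (adjusted p = 0.194). Scd2-m/-m replicate 1 alone was at 0, and without it the value was -0.80. Hist1h4k, Hist2h4 and Hist4h4 had values of -0.25, -0.14 and -0.75, each with an interval across 0. Single omissions moved them widely, Hist1h4k to between -0.57 (without Scd2-m/-m replicate 1) and -0.10 (without wild-type replicate 3), and Hist4h4 to between -1.30 (without Scd2-m/-m replicate 2) and -0.40 (without Scd2-m/-m replicate 1). Among H3 genes, Hist2h3c2 had 0.07, Hist1h3e 0.25 and Hist1h3d 0.35, also with intervals across 0. Apart from Hist1h4i, the intervals of these H3 and H4 genes reached further from 0 than the change of Hist1h1c, which was therefore not detectable in them at this depth.

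A pair of H2A genes below the count filter was singled out after their values were seen. Hist1h2ai had 12, 8 and 5 counts in wild-type and 4, 4 and 4 in Scd2-m/-m libraries. Hist1h2ag had 0, 3 and 0 counts in wild-type and 16, 9 and 11 counts in Scd2-m/-m libraries. These genes separated the genotypes in opposite directions. Hist1h4m, Hist1h3i and Hist1h2bq, also below the filter, separated them as well. Among all genes tested, 34.9% did so. The share among genes below the filter was not measured, so this separation is not read as a result. Only 9.88% of the 50-base windows of Hist1h2ai occur in no other gene, so its reads cannot be assigned with certainty. Summed, the 37 members below the filter had 1.57 ± 0.210 CPM in the wild-type libraries and reached 1.70 ± 0.160 CPM in those of Scd2-m/-m (SD, n = 3), with overlapping libraries. Hist1h2ag shares 71.8% of its 50-base windows with Hist1h2ao, so its reads and those of the pair above cannot be told apart with certainty. It was not among the genes tested, and it was called once the filter was opened to all genes with any count, a setting that also called Hist1h2bg.

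Summed by family, the members moved in different directions. The H1 sum was 54.3, 56.6 and 50.6 CPM in wild-type and 38.8, 40.1 and 38.0 CPM in Scd2-m/-m libraries. The H2A sum was 6.85, 8.07 and 7.54 CPM and then 9.37, 9.77 and 10.75 CPM, which is 133% of the wild-type mean. Both sums separated the genotypes, H1 downwards and H2A upwards. Hist3h2a supplied 59.4% of the H2A counts, and Hist1h2ao and Hist1h2ap together went from 0.841 ± 0.241 to 1.89 ± 0.420 CPM (SD, n = 3). The H2B, H3 and H4 sums were at 95.1%, 113% and 92.1% of wild-type, with overlapping libraries. No test was run on the sums, since near-identical copies can share reads.

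**Figure D4:**
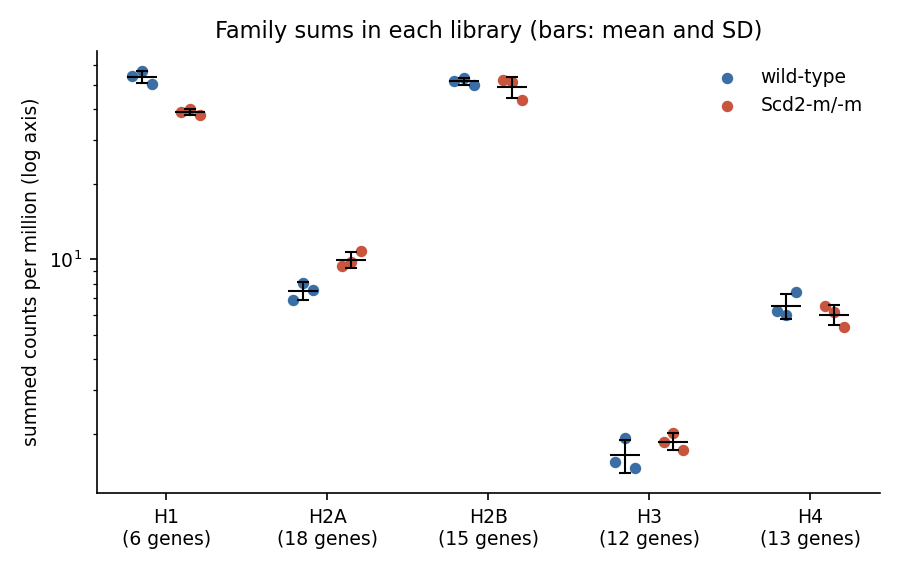
Summed level of each histone family in CPM on a log axis; points are libraries (blue, wild-type; red, Scd2-m/-m) and black bars the mean and SD of 3. The genotypes are separate for H1 (lower in Scd2-m/-m) and H2A (higher) and overlap for H2B, H3 and H4.

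The replacement and variant histones, which lie outside the clusters, were compared next. Of 18 listed, 12 were tested. Scd2-m/-m BMDMs had 3 of them at higher and 1 at lower levels, beside 17.5% of all genes called in either direction. The median log2 fold change of the 12 was -0.00488. H1f0, the replacement linker histone, was at 116, 112 and 96.6 CPM in wild-type and 60.4, 58.1 and 60.6 CPM in Scd2-m/-m libraries, so it fell together with Hist1h1c (log2 fold change -0.86, adjusted p = 2.63e-06). Cenpa, the centromeric H3 variant, went from 9.84 ± 1.75 to 24.5 ± 1.19 CPM (SD, n = 3; 1.31, adjusted p = 3.77e-06). H2afz, a variant placed at promoters, rose by 0.29 on the log2 scale (adjusted p = 0.00382). H2afx, the variant phosphorylated at DNA breaks and one of 12 genes outside the members whose transcripts hold the same stem-loop motif, rose by 0.40 (adjusted p = 0.0141), a call lost without wild-type replicate 2 (0.0897) or Scd2-m/-m replicate 1 (0.0533). H3f3a and H3f3b, both of which encode the replacement histone H3.3, had values of -0.08 and -0.02 and were not called.

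Of 44 genes tested from a list for histone mRNA processing and decay, 1 was higher and 5 were lower. The share of all genes called in either direction was 17.5%, and the median of the 44 was -0.04. The list also holds general factors of mRNA 3′ end formation and decay. Slbp, which encodes the stem-loop binding protein, was at 27.4, 25.7 and 24.2 CPM in wild-type and 22.7, 23.4 and 23.3 CPM in Scd2-m/-m libraries. The libraries did not overlap, but the value of -0.15 was not called (adjusted p = 0.154). Npat and Casp8ap2, which act in transcription of the clusters, had values of -0.02 and -0.08. Lsm11, a subunit of the U7 particle that cuts histone pre-mRNA, was lower (-0.33, adjusted p = 0.0150), as were Upf1, a helicase of RNA decay (-0.39, adjusted p = 0.000848), Cpsf1, a cleavage factor (-0.24), Snrpb, a spliceosomal Sm protein (-0.20), and Cdk9, an elongation kinase (-0.19). Cpsf6, another cleavage factor, was higher (0.29). Without wild-type replicate 2 or Scd2-m/-m replicate 2, 2 of the 44 were called.

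Among 42 genes for histone chaperones, deposition and acetylation, 4 were higher and 2 lower, beside 17.5% of all genes called in either direction. Chaf1b, a subunit of the CAF-1 complex that places new H3 and H4 on replicated DNA, was higher (0.74, adjusted p = 0.00207), and so were Oip5 (1.52), which acts in deposition of the Cenpa protein, and Mms22l (0.40). Npm3 (-0.49) and Set (-0.26), both histone chaperones, were lower. Asf1b, a chaperone of H3 and H4, had a value of 0.28 and was not called (adjusted p = 0.0870). Without wild-type replicate 2 or Scd2-m/-m replicate 3, 3 of the 42 were called.

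Genes of S phase and DNA replication were measured as the context in which replication-dependent histones are made. Of 63 tested, 27 were higher and 0 lower in edgeR, beside 9.65% and 7.84% of all genes tested. At an unadjusted p of 0.05, 1 was lower, and DESeq2 and limma-voom called 0 lower. In 3 settings, 1 was called lower: with the replicate block, with every gene with a count, and without Scd2-m/-m replicate 1. The list had 53 positive estimates and a median of 0.31. Rrm2, a subunit of ribonucleotide reductase, went from 1.78 ± 0.601 to 9.88 ± 1.22 CPM (SD, n = 3; 2.47, adjusted p = 2.53e-06), and Ccna2, the gene for cyclin A2, from 1.14 ± 0.10 to 10.1 ± 0.859 CPM (3.13, adjusted p = 8.44e-09). Uhrf1 (1.41), E2f7 (1.86) and E2f8 (0.88) were also higher. The clustered histone genes had a median of 0.07, with 2 higher and 2 lower of 27, beside a median of 0.31 for the S-phase genes. The difference between these lists was not tested. Poly(A)-selected libraries recover histone mRNA without a tail poorly. These values therefore do not show whether replication-dependent histone mRNA followed the S-phase genes. The marker lists for monocytes and progenitors and for neutrophils moved with the S-phase genes, with 8 of 11 and 6 of 9 tested genes higher. Mki67, a marker of dividing cells, is among the 8, so the monocyte and progenitor list is not independent of cell division. The part of both marker lists in the histone results was not tested.

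**Figure D5:**
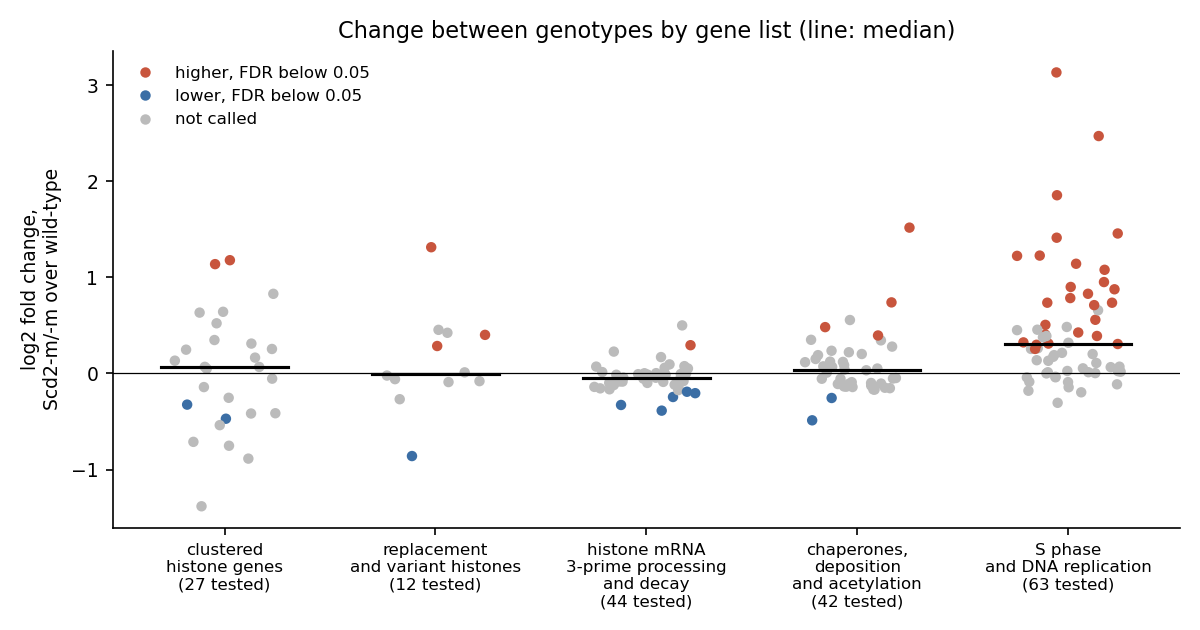
Log2 fold change between Scd2-m/-m and wild-type BMDMs for each tested gene of 5 lists; red points were called higher, blue points lower, grey points not called, and lines are medians. The S-phase list has 27 points called higher and 0 lower, and the clustered histone genes 2 higher and 2 lower.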

How the data were processed

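RNA of BMDMs was enriched for poly(A), so histone mRNA without a tail is recovered poorly and the values describe the retained transcripts. STAR was the aligner, with the Ensembl release 76 assembly (GRCm38), and the authors deposited raw counts per gene. The sources used here name neither the counting tool nor its strand setting, nor how reads matching several genes were treated. A second deposited table holds the authors' own comparison (fold changes, p-values, log2 CPM) and was not used. After removal of 276 repeated entries, 40481 genes were left. Genes passing filterByExpr were compared with edgeR 4.0.16 (TMM factors, robust quasi-likelihood test, no covariate, R 4.3.3), with Benjamini-Hochberg adjustment over all genes tested; calls were made at an FDR of 0.05. The fit was tested on simulated data. CPM used the TMM-scaled library size, and intervals are 95%. DESeq2 1.42.0 and limma 3.58.1 (voom) were alternatives.

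Members and gene lists were chosen with earlier results of these data known. Named genes were Scd2, each called member, in each family the 2 members highest per length and the tested members with the largest rise and fall, the tested members of the Hist2, Hist3 and Hist4 clusters, from every other list at most 5 called genes (lowest p), and H2afx, H2afz, H3f3a, H3f3b, H1f0, Slbp, Npat, Casp8ap2 and Asf1b. Snrpb, Mms22l, Hist1h2ag, Hist1h2ai, Hist1h4m, Hist1h3i, Hist1h2bq and the markers Lyz2 and Mki67 were named after their values were seen. A gene that the rule names is not reported here. Markers of erythroid, T and NK, mast and stromal cells (3, 2, 1 and 4 genes tested) had 0 calls in edgeR, DESeq2 and limma-voom (1 stromal gene at an unadjusted p of 0.05). The mast cell and basophil sum was 0.217 to 0.453 CPM in wild-type and 0.556 to 1.07 CPM in Scd2-m/-m libraries. Markers of B cells had 2 of 4 and of dendritic cells 2 of 7 tested genes higher, and those of macrophages 1 higher and 5 lower of 10. Trbc2, Ncr1, Gzma, Mcpt4 and Tpsb2 had no count in any library. Of member counts between 1 and 20, 69.2% were even, so counts were also halved as an alternative. Coordinates, exon lengths, stem-loops and 50-base windows came from GENCODE M21, also on GRCm38. The number of transcripts matched that of the count table for all 64 members, but their ends may differ from the gene models used for counting. Hist1h2bm and Hist1h2bh, which hold the stem-loop in M21, were not among the members.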

Additional observations from a re-analysis of the deposited data

How the results depend on the processing

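The 4 calls among clustered histone genes were the same genes with RLE or upper-quartile factors, DESeq2, limma-voom, at least 10 counts in every library, halved counts and an FDR of 0.1. With every gene with a count tested, 6 were called, and with identical copies summed, added after the data were seen, 3. Leaving out single libraries gave 1 to 4 calls, with 1, Hist1h1c, without wild-type replicate 2 or Scd2-m/-m replicate 2 and 2 without Scd2-m/-m replicate 1. Hist1h1c was called in every one of these settings, between -0.52 and -0.43 over single omissions. The same omissions gave 3 to 4 variant histones, 2 to 6 genes of histone mRNA processing, 3 to 8 chaperone genes and 18 to 23 S-phase genes called, and log2 ratios of the family sums of -0.51 to -0.43 (H1), 0.35 to 0.47 (H2A), -0.12 to 0.01 (H2B), 0.10 to 0.31 (H3) and -0.18 to -0.02 (H4). Besides Hist1h4k and Hist4h4, other values not called in the main fit moved by over 1.5 times under single omissions. They were those of Hist1h1e (0.25 to 3.07), Hist1h3d (0.10 to 0.54), Hist1h3e (0.05 to 0.59), Hist1h4c (-1.86 to -0.80), Hist1h4i (0.01 to 0.19), Hist3h2a (0.09 to 0.37), Hist3h2ba (-0.94 to -0.43) and H3f3a (-0.14 to -0.04). Estimates near 0 changed sign under single omissions, with ranges of -0.10 to 0.02 for Hist1h2bc, -0.18 to 0.37 for Hist2h2ac, -0.15 to 0.52 for Hist2h3c2, -0.38 to 0.07 for Hist2h4, -0.08 to 0.04 for H3f3b, -0.16 to 0.06 for Npat and -0.21 to 0.01 for Casp8ap2. Lsm11, Cpsf1, Cdk9, Npm3 and Set each lost their call in 2 to 4 of the omissions. Scd2 passed the threshold in limma-voom (-0.62, adjusted p = 0.0105) and without Scd2-m/-m replicate 1 (-0.83). Replicate numbers did not pair the libraries (correlations of deviations 0.0530, -0.0196 and 0.0398), and the fit with the replicate number as a block called 4 members, the same genes. Low counts and shared reads limit most members, and no cause of these shifts was tested.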
